A study of Homo sapiens with 6 samples.

Results

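The comparison described here is that of scramble-treated with untreated CSC-rich cells, 1 array each of the 6 arrays of the study. NCI-H460 is a human lung carcinoma line, established from a tumour of large cell histology. Its CSC-rich population, rich in cancer stem cells by the labels' account, had been propagated from it as spheroids. One array was of untreated and the other of scramble-treated CSC-rich cells; the stated exposure of treated cells was 6 h. The matching pair in parental NCI-H460 cells, kept with serum that the labels give for the parental culture alone, served as reference, so population and medium cannot be told apart. The remaining arrays were of CSC-rich and parental cells treated with PNAs-A15, an agent whose code name, like the make-up of the scramble, has no explanation in those labels. On the treated CSC-rich array the label shortens the agent's name. No group had a replicate, and nothing in the labels says that the arrays came from separate cultures, so differences between arrays are given as sizes and counts, without a test.

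A scramble control is an agent of shuffled sequence, given so that effects of delivery and handling can be seen apart from effects of the intended sequence. What it does to the transcriptome is read by gene class. Housekeeping machinery such as ribosomes, respiratory complexes and proteasomes is largely encoded by compact genes, whereas many adhesion, signalling and developmental genes span long stretches of chromosome. Small nucleolar and spliceosomal RNAs, which guide the modification of other RNAs or form the splicing machinery, and ribosomal RNA itself mostly lack the poly(A) tail from which the labelling kit primes, so an array reads them less directly than it reads messenger RNA.

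Of 47323 probes, 21056 passed a detection p of 0.05 on one or both arrays of the CSC-rich pair and were kept, or 44.5% of all. Of these, 17385 were detected on both arrays, 2827 on the untreated array alone and 844 on the scramble array alone. The parental pair was more even, with 1430 probes detected on the untreated array alone and 1585 on the scramble array alone. The kept probes named 11888 genes, of which 10580 were detected on both arrays, 1003 on the untreated array alone and 305 on the scramble array alone. Another 5450 kept probes had no gene name. Of these, 290 were at least 2-fold lower (5.32%) and 91 higher (1.67%) with scramble, or 6.99% in either direction. Over all kept probes, 976 were lower (4.64%) and 232 higher (1.1%), or 5.74% in all.

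The scramble array stood apart before any gene was compared. It had 38.5% of probes detected, against 42.7% on the untreated and 41.2% on the PNAs-A15 array of the same population, and its upper quartile of signal was 273, against 337 and 335. The array with the fewest detected probes, 36.5%, was that of PNAs-A15-treated parental cells. Across genes, log2 levels on the scramble array correlated with those on the untreated array at a Pearson r of 0.981, whereas the PNAs-A15 array of the same population reached 0.992 with the untreated array, and so did the parental pair with each other. These coefficients are across 11888 genes of arrays that were normalized together and are given as descriptions. Whether these array differences have a part in the differences below was not tested.

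On the normalized scale, 374 genes were at least 2-fold lower (3.15%) and 104 at least 2-fold higher (0.875%) on the scramble array than on the untreated array, 478 genes or 4.02% in all. In the parental pair, 30 of 12014 genes were at least 2-fold lower (0.25%) and 63 higher (0.524%), or 0.774% in all. The median log2 difference of all genes, scramble minus untreated, was 0.08 in CSC-rich cells, with quartiles of -0.26 and 0.35, and -0.04 in parental cells, with quartiles of -0.23 and 0.16. The SD over genes was 0.48 in the CSC-rich pair, 0.32 in the parental pair and 0.31 for PNAs-A15 minus untreated CSC-rich cells. The last comparison shares the untreated array with the pair described here. Among genes detected on both arrays, 211 were at least 2-fold lower (1.99%) and 63 higher (0.595%), or 2.59% in all. The fold of the other genes past 2-fold, detected on 1 of the 2 arrays, rests on a fitted level near the floor and is not a bound; such genes are named with their bounds. The split between directions moved with the scaling: 678 genes were lower and 40 higher when arrays were scaled to equal medians, and 279 lower and 0 higher without normalization between arrays.

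**Figure D1:**
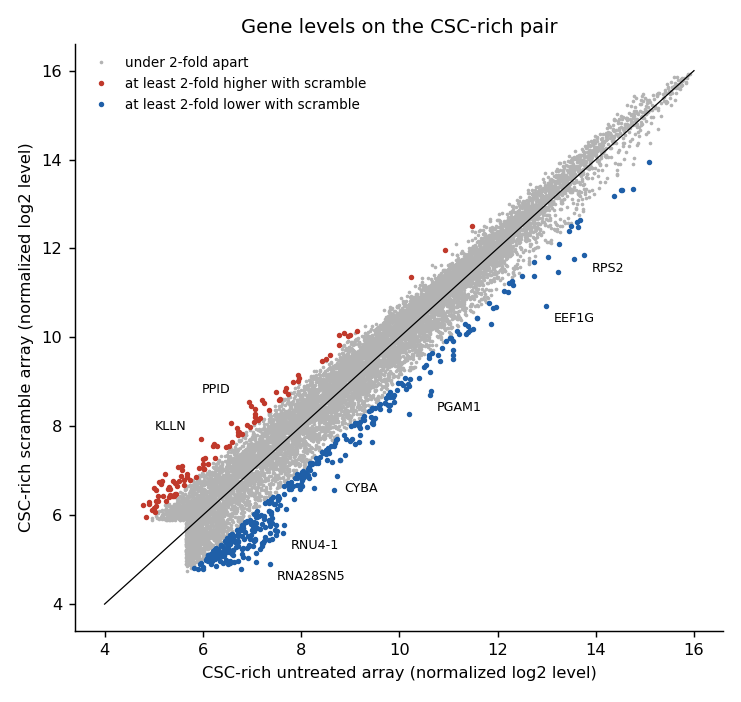
Level of each gene on the untreated (horizontal axis) and scramble-treated (vertical axis) CSC-rich array, as normalized log2 values; the line marks equal levels, and coloured points are the 374 genes at least 2-fold lower and the 104 at least 2-fold higher with scramble. The lower genes run along the whole range of levels, from RNA28SN5 near the floor to RPS2 and EEF1G among the brightest, whereas the higher genes lie mostly in the dim part.

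The gene furthest below the untreated level among those detected on both arrays was EEF1G on chromosome 11, the gamma subunit of translation elongation factor 1. Its log2 level was 12.99 in untreated, 10.71 in scramble-treated and 13.63 in PNAs-A15-treated CSC-rich cells, a difference of -2.28 between scramble and untreated. In parental cells it was 13.04 untreated and 13.74 with scramble. The scramble array of CSC-rich cells was thus the low array of these, and the parental difference, 0.71, had the opposite sign. As deposited, before any normalization, the EEF1G signal was 1625 on the scramble array and 8358 on the untreated array. Among the highest genes, PPID on chromosome 4, which encodes the cyclophilin Cyp40, a cochaperone of Hsp90, had log2 levels of 6.93 untreated, 8.54 with scramble and 6.88 with PNAs-A15 in CSC-rich cells. In parental cells it stood at 7.80 untreated and 6.64 with scramble, again with the opposite sign. The difference of 1.61 in CSC-rich cells rests on deposited signals of 419 with scramble and 244 untreated, a far smaller ratio than the normalized one, since these are signals before background subtraction and quantile normalization.

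The promoters of these genes are shown because they are among the genes furthest apart in opposite directions and because base composition of the promoter was one of the properties set against it. Each stretch runs from 250 bases before to 50 bases after the annotated start in NCBI RefSeq's GRCh38.p14, 5′ to 3′ on the gene's strand, with every CG in capitals. Both genes were picked after their values were seen. The EEF1G stretch is chr11:62573842-62574141 and the PPID stretch is chr4:158723347-158723646, both on the minus strand.
EEF1G: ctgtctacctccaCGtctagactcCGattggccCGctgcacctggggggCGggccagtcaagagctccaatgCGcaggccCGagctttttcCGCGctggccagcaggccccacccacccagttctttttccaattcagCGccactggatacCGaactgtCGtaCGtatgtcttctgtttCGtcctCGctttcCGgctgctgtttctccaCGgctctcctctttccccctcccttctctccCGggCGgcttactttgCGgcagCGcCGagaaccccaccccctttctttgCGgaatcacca
PPID: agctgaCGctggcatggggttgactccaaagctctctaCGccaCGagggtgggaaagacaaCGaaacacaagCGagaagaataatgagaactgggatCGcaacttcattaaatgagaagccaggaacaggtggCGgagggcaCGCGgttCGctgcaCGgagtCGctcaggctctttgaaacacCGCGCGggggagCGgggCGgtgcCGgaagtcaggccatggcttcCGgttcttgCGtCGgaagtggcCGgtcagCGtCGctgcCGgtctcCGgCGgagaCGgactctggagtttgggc
Both stretches have a G and C content of 61%, and they hold 22 and 28 CG pairs, which read the same on both strands. Of 27305 RefSeq promoters of this length, 95.8% held at least 1 CG, and the median over the promoters of measured genes was 26. Over the 9554 genes with a promoter sequence, 80.4% of those measured, the difference between scramble and untreated ran flat against G and C content, with a Spearman rho of -0.026 across genes.

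The 15 lowest genes detected on both arrays came from varied cellular roles. Translation was represented by EEF1G and by the small-subunit ribosomal proteins RPS2 and RPS9. RPS2 had log2 levels of 13.77 untreated, 11.84 with scramble and 14.27 with PNAs-A15 in CSC-rich cells, a difference of -1.93. RPS9 had levels of 13.55, 11.77 and 13.95, and its second probe gave a difference of -1.66 beside the -1.79 of the first. Both ribosomal proteins are among the most abundant transcripts of the cell, so these differences lie far from the floor of the array. RPS2 and EEF1G belong to families with many processed copies in the genome, and their probes may also read copies; probe sequences were not used here.

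Metabolic and secretory-pathway genes were also among the lowest. PGAM1, the glycolytic phosphoglycerate mutase, had log2 levels of 10.62 untreated, 8.70 with scramble and 10.96 with PNAs-A15 in CSC-rich cells, and 11.33 untreated against 12.35 with scramble in parental cells. Its second probe did not share the difference, with 0.07 in place of -1.93. SSR2, a subunit of the translocon-associated complex of the endoplasmic reticulum, had a difference of -1.91 by its brightest probe and -0.24 by the other. EBP, an isomerase of cholesterol synthesis, stood at 9.44 untreated, 7.65 with scramble and 9.37 with PNAs-A15. CYBA, the p22 subunit of the NADPH oxidase, stood at 8.72, 6.88 and 9.62 in the same order. The remaining genes of the set were PQBP1, a nuclear protein linked to splicing (-2.11), LGALS3BP, a secreted galectin-binding glycoprotein (-1.86), S100A4, a calcium-binding protein (-1.76, and -0.64 by a second probe), the histone gene H2AC25 (-1.64), the phosphatase subunit PPP2R3B (-1.55, and -0.45 by a second probe) and the lipase maturation factor LMF2 (-1.55). The transcribed pseudogenes HNRNPA1P33 (-1.59) and PDIA3P1 (-1.57, and -0.58 by a second probe) complete the set, and their probes may read the parent messages HNRNPA1 and PDIA3, so the pseudogenes themselves are uncertain. On the CSC-rich arrays the scramble array held the lowest level for 15 of 15, and over all 6 arrays for 12 of 15. PNAs-A15-treated CSC-rich cells stayed between -0.37 and 0.90 of the untreated level for these genes. The parental difference was above 0 for 14 of 15, S100A4 being the exception at -0.03.

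The 15 highest genes were dimmer, with untreated log2 levels between 5.97 and 8.77. KLLN, a p53-induced nuclear protein, had levels of 5.97 untreated, 7.71 with scramble and 5.84 with PNAs-A15 in CSC-rich cells, the largest difference at 1.74. In parental cells KLLN stood at 6.35 untreated and 6.27 with scramble, so the parental pair did not show it, but it was at 9.37 on the parental PNAs-A15 array. Signals of KLLN as deposited were 277 with scramble and 175 untreated. AFMID, an enzyme of tryptophan breakdown, differed by 1.48 by its brightest probe and by -0.04 by the other. GSDMA, a pore-forming gasdermin, differed by 1.47 in CSC-rich cells and by -0.69 in parental cells. TELO2, which stabilises kinases of the PIKK family, was the brightest of the set, at 8.77 untreated, 10.05 with scramble and 8.38 with PNAs-A15.

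Several of the 15 highest were long genes: 7 spanned over 80 kb. NRXN3, a synaptic adhesion gene spanning 1698 kb, stood at 6.69 untreated, 7.96 with scramble and 6.96 with PNAs-A15, and at 7.08 and 6.26 in the parental pair. ST6GALNAC3, a sialyltransferase gene of 563 kb, differed by 1.36 in CSC-rich cells and by -0.81 in parental cells. CEP128, a centriole protein, differed by 1.25, STXBP4, a syntaxin-binding protein, by 1.29, RAPGEF5, an exchange factor for Rap, by 1.26, CEMIP, a hyaluronan-degrading protein, by 1.31 and SLAIN2, a microtubule-binding protein, by 1.24. The set was completed by the augmin subunit HAUS5 (1.28), the channel-like protein TMC4 (1.37) and PLEKHO1 (1.38). Over all 6 arrays the CSC-rich scramble array was the highest for 7 of the 15, and the parental PNAs-A15 array for 6. The parental PNAs-A15 array was at least 2-fold above the parental untreated array for 7 of the 15. Its share over all genes was 20.1%, so such values were common on that array.

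**Figure D2:**
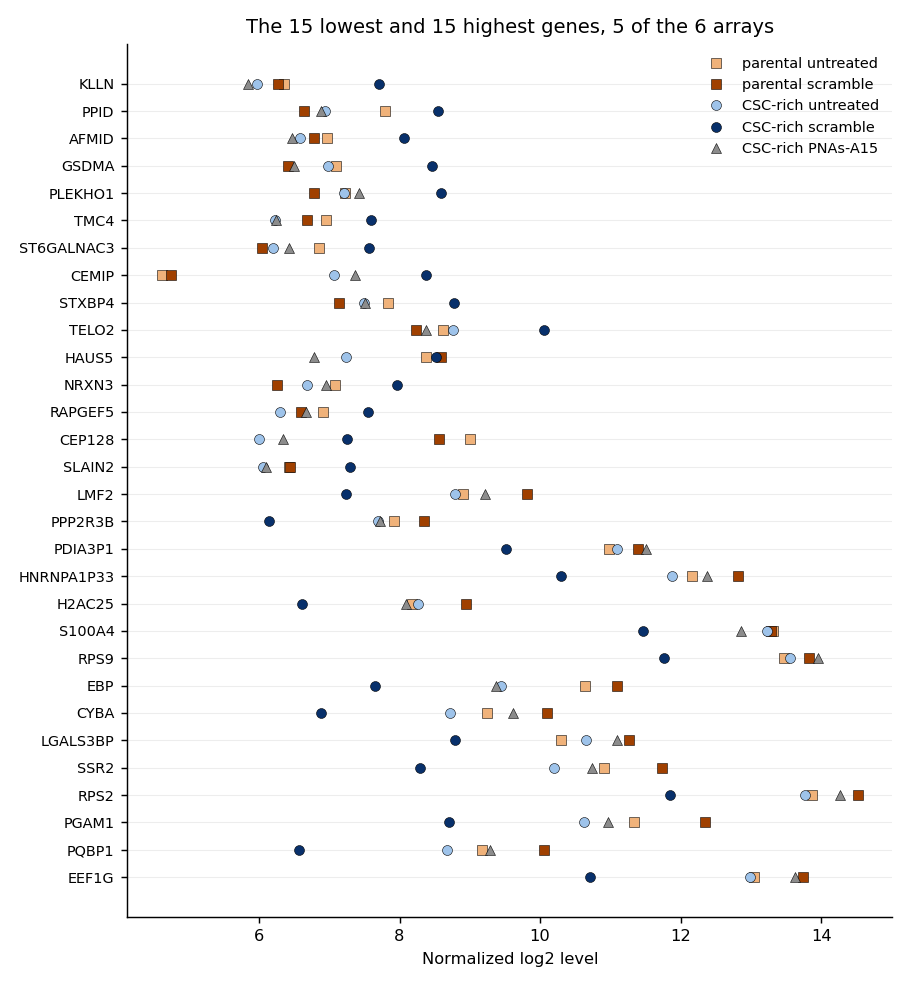
Normalized log2 level (horizontal axis) of the 15 highest and 15 lowest genes detected on both CSC-rich arrays, 1 point per array and gene, for the 3 CSC-rich arrays and the parental pair; the parental PNAs-A15 array is not drawn. Among the lowest 15 the dark circle of the CSC-rich scramble array lies left of all other points, and for the highest 15 it lies right of the other CSC-rich arrays.

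Genes detected on the untreated array alone have only a bound. MAEA, a subunit of a ubiquitin ligase, was at least 3.38-fold lower with scramble. RNU4-1, a U4 spliceosomal RNA, was at least 3.34-fold lower, with log2 levels of 7.63 untreated, 5.60 with scramble and 7.38 with PNAs-A15, and the parental PNAs-A15 array was low as well at 5.16. MRPL4, a mitochondrial ribosomal protein, was at least 3.04-fold lower. CPNE7, a copine, was at least 3.02-fold lower, and the long non-coding RNA CPS1-IT1 was next. WDR81 followed at 2.87-fold and ACOT1, a thioesterase gene with a near-identical neighbour that its probe may also read, at 2.85-fold, both as minima. In the other direction, EBF2, a transcription factor, was at least 2.75-fold higher, MYH14, a non-muscle myosin heavy chain, at least 2.69-fold, the muscle kinase SPEG at least 2.57-fold and the cytokine IL17A at least 2.40-fold higher. IL17A had a detected signal on the scramble array alone of all 6. The DNA primase subunit PRIM2, the integrin ITGA9, the odorant receptor OR7G3 and SNHG10, a long non-coding RNA, had bounds of 2.36-fold, 2.22-fold, 2.18-fold and 2.15-fold higher.

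A second probe for the same gene gives the only repeat reading within these arrays. Among 3027 genes with at least 2 kept probes, the differences of the brightest and the second probe correlated across genes at a Pearson r of 0.373, and 325 genes (10.7%) had probes at least 2-fold apart from each other. Probes of a gene share the arrays and their normalization. Of 69 genes at least 2-fold lower by the brightest probe, 22 (31.9%) were so by both, and for 64 the second probe was below the median of all genes. Of 18 at least 2-fold higher by the brightest probe, 1 was so by both, and for 13 the second probe was on the same side of the median.

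The gene that both probes placed at least 2-fold higher was CA2, carbonic anhydrase, with log2 levels of 7.93 untreated, 9.15 with scramble and 8.65 with PNAs-A15 and differences of 1.22 and 1.14. GNAI1, an inhibitory G protein subunit, followed with 0.96 and 1.0, and KLHL14, KBTBD3 and ZNF385B had values of at least 0.88 by both probes. On the lower side, KEAP1, the adaptor that targets the antioxidant factor NRF2 for degradation, stood at 9.34 untreated, 7.99 with scramble and 9.72 with PNAs-A15, with differences of -1.35 and -2.00. STUB1, a ubiquitin ligase that works with chaperones, had -1.41 and -1.62. RPL13AP5, a pseudogene whose probes may read RPL13A, had -1.42 and -1.47. The ribosomal protein RPL29 was at least 2.47-fold lower by its brightest probe and differed by -1.86 by the second. The glycolytic enzyme TPI1 had -1.05 and -1.72, the proteasome subunit PSMD4 -1.32 and -1.29, the elongation factor subunit EEF1D -1.24 and -1.19, and ferritin light chain, FTL, -1.13 and -1.11. ALDOA, another glycolytic enzyme, had -1.14 by one probe and 0.20 by the other, so its direction is not settled.

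Class medians from here on are log2 differences relative to the median of all genes, and counts at 2-fold use fitted levels. They are read beside the 3.15% lower and 0.875% higher of all genes. Among transcript classes, structural RNAs had the lowest fitted values. The 3 measured ribosomal RNA genes had a median of -1.89, and by fitted levels all were past 2-fold lower with scramble. None was detected on the scramble array, so each was kept through the untreated array alone and has only a bound. Their median thus describes fitted levels near the floor. RNA28SN5 had log2 levels of 7.36 untreated, 4.91 with scramble and 7.43 with PNAs-A15 in CSC-rich cells, and was at least 2.76-fold lower. RNA18SN5 stood at 7.46, 5.66 and 7.47, and was at least 2.97-fold lower. RNA5S9, of the 5S ribosomal RNA, was at least 1.65-fold lower. RNA28SN5 and RNA18SN5 were low on the parental PNAs-A15 array too, at 4.64 and 5.03, but not on the parental scramble array, at 6.90 and 6.82. The low values thus stood on the 2 arrays with the fewest detected probes, and whether that array property has a part in them was not tested. The genome holds many copies of these genes, and the probes cannot tell them apart.

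Small RNAs of the nucleus went the same way to a lesser degree. Of 323 listed small nucleolar, Cajal body and spliceosomal RNA genes, 150 were measured, and 12 were at least 2-fold lower and 1 higher. Their median was -0.40 relative to all genes, against 0.04 in the parental pair. Of the 150, 30 were above the median of all genes. By detection, 110 were found on both arrays, 36 on the untreated array alone and 4 on the scramble array alone. Over all 11888 genes these counts were 10580, 1003 and 305. The 36 were kept only through the untreated array, which favours a low median and lower counts. The 122 snoRNA genes by RefSeq type had a median of -0.40 and the 12 snRNA genes one of -0.63. SNORA16A, which guides pseudouridylation of ribosomal RNA, was at least 2.58-fold lower, SNORD14D at least 1.76-fold and SCARNA23 at least 1.30-fold lower. Set against genes of the same level decile the list's median was -0.42, and against genes of the same span decile -0.23.

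Long non-coding and microRNA genes did not follow the small nuclear RNAs. The 279 lncRNA genes had a median of 0.03 relative to all genes, with 9 at least 2-fold higher and 5 lower. The 58 microRNA genes by type had a median of -0.02, and the 329 measured ZNF zinc finger genes one of 0.04, with 1 higher and 7 lower. Transcribed pseudogenes, 214 in number, had a median of -0.19, with 16 lower and 1 higher. The 11160 protein-coding genes, which set the overall median, had 335 lower and 93 higher.

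By the smaller of its differences in both populations, MIR1282 was the lowest gene. Its log2 level was 7.21 untreated, 5.37 with scramble and 5.10 with PNAs-A15 in CSC-rich cells, and 6.63 untreated and 5.31 with scramble in parental cells. It was detected on 2 of the 6 arrays, the untreated ones, and was at least 2.48-fold lower with scramble in CSC-rich cells. In parental cells its scramble level was under the lowest detected level of that array, 5.65, so its fold there is a fitted value. The mature sequence is shown because this is the single gene at least 2-fold lower by fitted levels in both pairs, a choice made after its values were seen. It lies at chr15:43793732-43793751 on the minus strand of GRCh38.p14 in RefSeq, 5′ to 3′, with the seed, bases 2 to 8, in capitals.
hsa-miR-1282: uCGUUUGCcuuuuucugcuu
The probe does not tell the mature form from its precursor.

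Among the protein complexes, mitochondrial ribosomal proteins were the lowest as a class. All 76 were measured, with a median of -0.35 relative to all genes, 6 at least 2-fold lower, 0 higher and 16 above the median of all genes. In parental cells the same class had 0.12, and for PNAs-A15 minus untreated CSC-rich cells 0.15. MRPL12 stood at 8.90 untreated, 7.36 with scramble and 9.42 with PNAs-A15, and MRPL54 at 9.77, 8.48 and 10.23. MRPL23 differed by -1.21 in CSC-rich cells and by 0.53 in parental cells. Compared with genes of the same span decile the class median was -0.25.

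The nuclear-encoded respiratory chain, 83 genes measured, had a median of -0.24, with 6 at least 2-fold lower and 1 higher. NDUFA3, NDUFA11 and NDUFB7, subunits of complex I, differed by -1.20, -1.16 and -1.16, and ATP5F1D, a subunit of ATP synthase, by -1.15 with -0.47 by a second probe. These 4 genes differed by 0.68, 0.65, 0.60 and 0.55 in parental cells. Proteasome subunits had a median of -0.17, with 3 of 41 lower. PSMC4, a base ATPase of the proteasome, was at least 1.64-fold lower with scramble in CSC-rich cells and differed by 1.41 in parental cells. PSMD3 differed by -1.27 and 0.89 in the same order.

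Cytosolic ribosomal proteins, of which 79 of 84 were measured, had a median of -0.19, with 7 at least 2-fold lower, 0 higher and 15 above the median of all genes. The quartiles of its differences, before the median of all genes was taken off, were -0.47 and 0.03, so RPS2 and RPS9 lay far outside the middle of the class. Set against genes of the same span decile, the median was -0.05. Translation initiation and elongation factors had a median of -0.07, with 3 of 68 lower. EIF5A, which carries hypusine, differed by -1.39 in CSC-rich cells and by 0.82 in parental cells. The 16 tRNA synthetase genes had a median of -0.11 and none was at least 2-fold apart. Splicing factors had a median of -0.02 but 7 of 113 lower. Among them were HNRNPL at 9.18 untreated and 7.65 with scramble, and HNRNPA1 at 8.14 and 6.90. The 7 include the pseudogene HNRNPA1P33, whose probe may read HNRNPA1, so this message may be counted more than once.

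Histone genes had medians below that of all genes, with few members past 2-fold. The 22 replication-dependent histone genes measured had a median of -0.30, with 1 lower, against -0.13 in parental cells. For PNAs-A15 minus untreated CSC-rich cells, which shares the untreated array, they had -0.28. The scramble median was -0.13 relative to genes of the same span decile and -0.14 without normalization between arrays. H2BC18 lay on the other side, with 0.92. The 9 replacement histone genes had a median of -0.21, against 0.27 in parental cells, but -0.08 with median scaling and -0.14 relative to genes of the same span decile. H2AX, the variant phosphorylated at DNA breaks, stood at 7.27 untreated and 6.27 with scramble in CSC-rich cells, and at 9.22 and 10.02 in parental cells, whereas H2AZ2 differed by 0.67 in CSC-rich cells.

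Cell-cycle genes of mitosis lay on the other side. Of 45 listed genes 40 were measured, and 30 were above the median of all genes. On the higher side 3 exceeded 2-fold, and on the lower side 0. The median was 0.30 relative to all genes, against -0.14 in parental cells and 0.18 for PNAs-A15 minus untreated CSC-rich cells. KIF14, a mitotic kinesin, stood at 7.35 untreated, 8.36 with scramble and 7.75 with PNAs-A15. ANLN, anillin of the cleavage furrow, stood at 8.59, 9.61 and 8.83, and KIF11, the spindle kinesin, at 8.21, 9.13 and 8.35 with 0.39 by its second probe. CDC25C, the phosphatase that activates the mitotic kinase, was at least 2.04-fold higher. With scramble all 4 stayed below their levels on both arrays of the parental pair, where KIF11 was at 12.06 untreated and KIF14 at 10.91. Genes of DNA replication did not share the difference: 47 measured genes had a median of 0.03. Set against genes of the same span decile, the mitosis median was 0.30, and against the same level decile 0.31.

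Stem cell markers, 19 measured, had a median of 0.35 and 15 were above the median of all genes, but 0 were at least 2-fold higher and 1 was lower. ITGA6, a laminin-binding integrin, differed by 0.82, the transporter gene ABCG2 by 0.70 and ALDH1A3, a retinaldehyde dehydrogenase, by 0.83, with -0.29 by a second probe of the last. The lower gene was ID3, an inhibitor of basic helix-loop-helix factors, at 8.22 untreated and 7.18 with scramble. The 19 measured genes of the TGF-beta, BMP and ID list, which also holds ID3, had a median of 0.35, against -0.22 in parental cells. SMAD9, a transducer of BMP signals, differed by 0.89 and SMAD6, an inhibitor of the pathway, by 0.60. Notch, Wnt and Hedgehog genes had a median of 0.22, with DKK1, a secreted Wnt antagonist, at 6.79 untreated and 7.82 with scramble, and SMO, the Hedgehog signal transducer, differing by -0.88. YAP-TEAD targets had 0.19 in CSC-rich and 0.27 in parental cells.

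Of the stress, response and metabolic pathways, cholesterol synthesis and apoptosis genes lay furthest from the median of all genes. Interferon-stimulated and nucleic acid sensing genes had a median of -0.15 and none of 33 was at least 2-fold apart. OAS1, a sensor of double-stranded RNA, differed by -0.89 and by -1.87 by its second probe. NF-kB and inflammatory genes had 0.02 and heat shock genes -0.02, with no member past 2-fold in either list. Immediate early genes had 0.02, the RAS-MAPK feedback genes 0.03 and p53 targets -0.02. Unfolded protein response genes had -0.09, with 3 of 30 past 2-fold lower, among them PDIA4, a disulphide isomerase, at least 2.25-fold lower. Apoptosis regulators had -0.19, with 3 of 26 past 2-fold lower. BAD differed by -1.37 and BAX by -1.04, though BAX had -0.30 by its second probe. Cholesterol and fatty acid synthesis genes had -0.21 in CSC-rich and -0.10 in parental cells. For PNAs-A15 minus untreated CSC-rich cells, which shares the untreated array, they had -0.26. TM7SF2, a sterol reductase, was at least 2.76-fold lower with scramble. DHCR7, the last reductase of the cholesterol route, differed by -0.93 and by -1.22 by its second probe. NRF2 and metal response genes had -0.12, with 2 of 30 past 2-fold lower and 1 higher. Lysosome and autophagy genes had -0.06, with 4 of 43 lower, and hypoxia and glycolysis genes -0.05, with 3 of 38 lower. Solute carriers had -0.03, with 6 of 217 lower, and genes of mRNA decay and export 0.02, with 3 of 35 lower and 1 higher. Over all genes 3.15% were lower, and most of these counts rest on few genes.

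Markers of cell types were checked on the same scale. The 8 measured epithelial markers of 15 listed had a median of -0.56, with 1 above the median of all genes and 0 past 2-fold, against 0.20 in parental cells. KRT19, a keratin of simple epithelia, stood at 12.36 untreated, 11.60 with scramble and 13.25 with PNAs-A15. JUP, a junction plaque protein, stood at 10.92, 10.18 and 11.39. Both were above the untreated level with PNAs-A15, but the list was not. Its median for PNAs-A15 minus untreated CSC-rich cells, which shares the untreated array, was -0.22 relative to all genes. TJP1, the tight junction scaffold, was the one above, with 0.62. The 12 measured mesenchymal markers had 0.22, with 8 above the median of all genes, 0 at least 2-fold higher and 1 lower. CDH2, N-cadherin, stood at 11.77 untreated and 12.49 with scramble. The lower gene was S100A4, which differed by -1.76 and by -0.64 by its second probe. Neuroendocrine markers, 6 measured, had 0.31, and 0.22 with the median over probes. For PNAs-A15 minus untreated CSC-rich cells they had 0.30. CHGA stood at 10.04 untreated and 10.62 with scramble, and NCAM1 differed by 0.34 but by -1.21 by its second probe. Of lung airway and alveolar markers 3 of 14 were measured, and their median was 0.04. HOPX alone was detected on both arrays, at 12.26 untreated, with a difference of 0.12 and of -0.71 by its second probe. AGER was detected on the scramble array alone and SCGB3A2 on the untreated array alone, both near the floor. Few lung-specific markers were thus measured in the large cell carcinoma line.

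Markers of immune cells, which the culture should lack, were near the floor. Of 15 immune cell markers 8 were measured, with untreated levels such as 5.08 for LYZ, 5.42 for ITGAM and 5.28 for MS4A1, none of which was detected on the untreated array. Their median was 0.46, with 7 of 8 above the median of all genes, 4 detected on both arrays and 3 on the scramble array alone. Those 3 were kept only through the array where they were higher, so the filter favoured their direction. LYZ was at least 1.73-fold higher and the blood gene HBB at least 1.48-fold lower with scramble. Their part in the other results was not tested. Of 15 fibroblast and endothelial markers 5 were measured, with a median of 0.44. COL3A1, a fibrillar collagen gene, stood at 7.77 untreated and 8.65 with scramble in CSC-rich cells, and at 12.40 untreated in parental cells, the highest of its levels named here.

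Over the 39 lists, 15 had a median at least 0.2 away from that of all genes, and the sign of these 15 was kept in each of 135 recomputed values. The size was less stable. Nearest to 0, stem cell markers had 0.13 and fibroblast and endothelial markers 0.22 with the median over probes. Without normalization between arrays, mesenchymal markers had 0.05, Notch, Wnt and Hedgehog genes 0.09, cholesterol and fatty acid synthesis -0.13 and epithelial markers -0.33. Without background correction, TGF-beta, BMP and ID genes had 0.20, immune cell markers 0.22 and the small nuclear RNAs -0.22. The lists, and which of their members are named, were chosen with earlier results of these data known, so their medians describe and do not test.

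**Figure D3:**
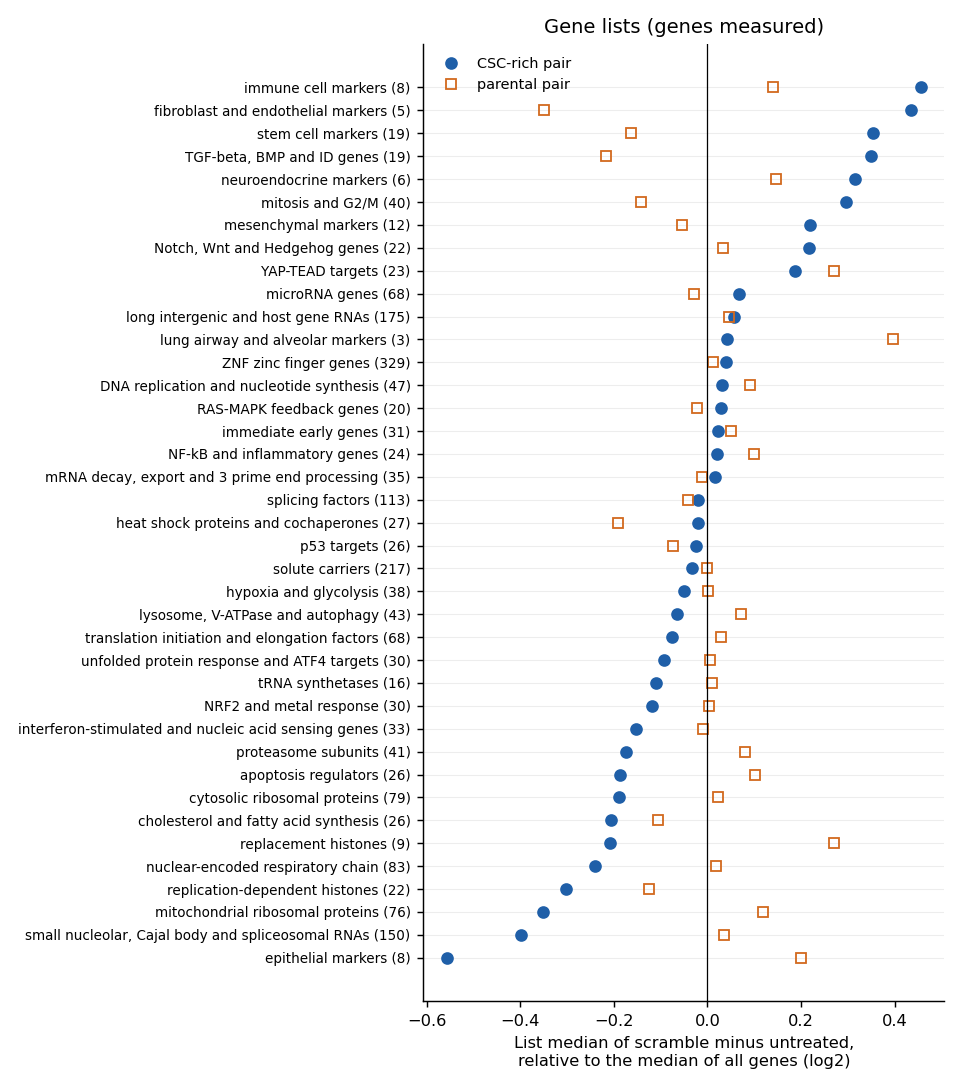
Median log2 difference between scramble and untreated of each gene list, relative to the median of all genes, in the CSC-rich pair (filled circles) and in the parental pair (open squares); the number of genes measured stands in brackets. Epithelial markers (-0.56), small nuclear RNAs (-0.40) and mitochondrial ribosomal proteins (-0.35) lie lowest in the CSC-rich pair, and 5 of the 8 lists placed highest there lie below 0 in the parental pair.

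Level and gene class were then set against each other. Level was taken from the other 4 arrays, so that it shares no array noise with the pair. Over deciles of level the median difference stayed between 0.01 and 0.13, a range of 0.12. That range was 0.20 when detection on both arrays was required, 0.17 with median scaling and 0.13 without normalization between arrays. Quantile normalization gives all arrays the same distribution, which can reduce shifts with level beforehand, and the shares below were taken after that step. The share of genes at least 2-fold lower was 1.93% in the dimmest decile, 6.64% in decile 3 and 1.77% in the brightest, and the share at least 2-fold higher went from 3.20% in the dimmest decile to 0.00% in the brightest. Level deciles held 0.187% of the variance of the differences over genes. RefSeq gene type held 1.35%, promoter G and C content 0.256% and chromosome 3.36%.

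The span of the gene on the chromosome, a property that no list used, held 5.02% of the variance. In the decile of genes with the shortest span, up to 3.89 kb, the median difference was -0.09, with 80 genes (6.73%) at least 2-fold lower and 13 (1.09%) higher. In the decile with the longest span, from 155 kb, the median was 0.26, with 14 genes (1.18%) lower and 28 (2.36%) higher. Between these ends the median climbed at each step, through 0.02 in decile 4, 0.08 in decile 6 and 0.18 in decile 8. The longest decile minus the shortest was 0.35, and 0.22 without normalization between arrays. The Spearman rho across 11877 genes was 0.230. The parental pair ran the other way, from 0.05 in the shortest decile to -0.13 in the longest, with a rho of -0.216. For PNAs-A15 minus untreated CSC-rich cells, which shares the untreated array, the medians were 0.03 and -0.09.

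Span and level were crossed for protein-coding genes. The longest quintile by span was above the shortest quintile in each quintile of level, by 0.30, 0.20, 0.35, 0.38 and 0.27 from the dimmest to the brightest. In the parental pair these differences were -0.10, -0.18, -0.25, -0.24 and -0.12. Within quintiles of span, the range over quintiles of level was 0.18 in the shortest and 0.04 in the longest. Level and span together held 6.22% of the variance, so most of the variance over genes lay outside both.

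**Figure D4:**
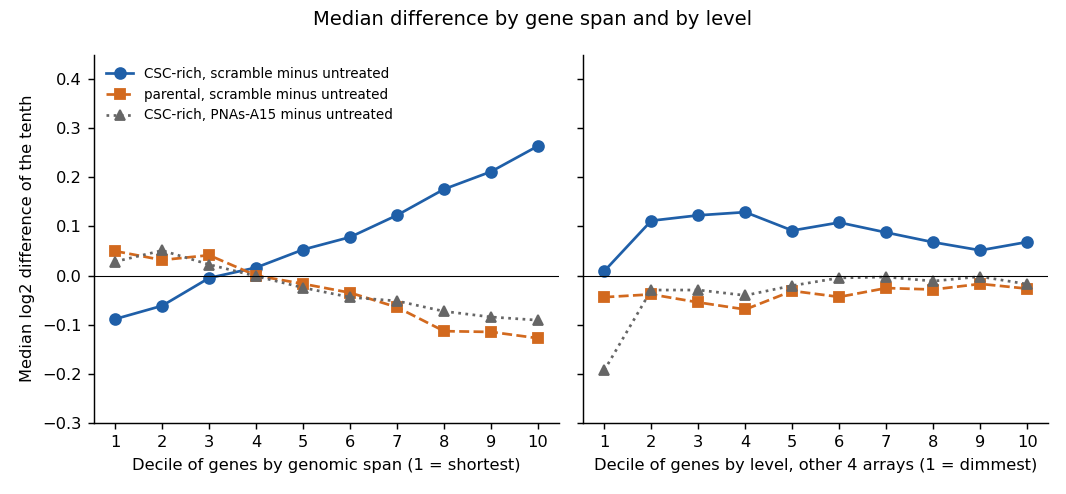
Median log2 difference (vertical axis) in deciles of genes ordered by genomic span (left panel) and by level on the 4 arrays outside the CSC-rich pair (right panel), for CSC-rich scramble minus untreated, parental scramble minus untreated and CSC-rich PNAs-A15 minus untreated. The CSC-rich scramble line climbs from -0.09 to 0.26 with span and stays between 0.01 and 0.13 over level, whereas the parental line falls with span from 0.05 to -0.13.

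Chromosomes differed as well, and gene span differs between them. The lowest medians were -0.07 on chromosome 19 and -0.05 on chromosomes 17 and 20, followed by -0.04 on chromosome 16 and -0.02 on chromosome 22. The highest were 0.28 on chromosome 13, 0.23 on chromosome 18, 0.22 on chromosome 4 and 0.19 on chromosome 5. The parental medians had the opposite order at these ends, 0.10 on chromosome 19 and -0.19 on chromosome 13. Within each of 23 chromosomes the longer genes had the higher median, by 0.02 on chromosome 20 to 0.26 on chromosome 11. Relative to genes of the same span decile the order at the low end changed: chromosome 20 was lowest at -0.14, followed by chromosome 17 at -0.11, with chromosomes 22 and 19 both at -0.09, and chromosome 13 stayed highest at 0.16.

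The same genes were then followed in the parental pair. Across 11888 genes the CSC-rich difference and the parental difference, which share no array but were normalized together, correlated at a Pearson r of -0.515 and a Spearman rho of -0.518. Without normalization between arrays the values were -0.600 and -0.576, and over 10106 genes detected on all 4 arrays -0.579 and -0.575. Deciles of the parental difference held 27.3% of the variance of the CSC-rich difference, more than level, span, chromosome or gene type. In the decile with the lowest parental values, median -0.52, the CSC-rich median was 0.41. In the decile with the highest, median 0.50, it was -0.53, and 220 of its 1189 genes (18.5%) were at least 2-fold lower in CSC-rich cells.

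**Figure D5:**
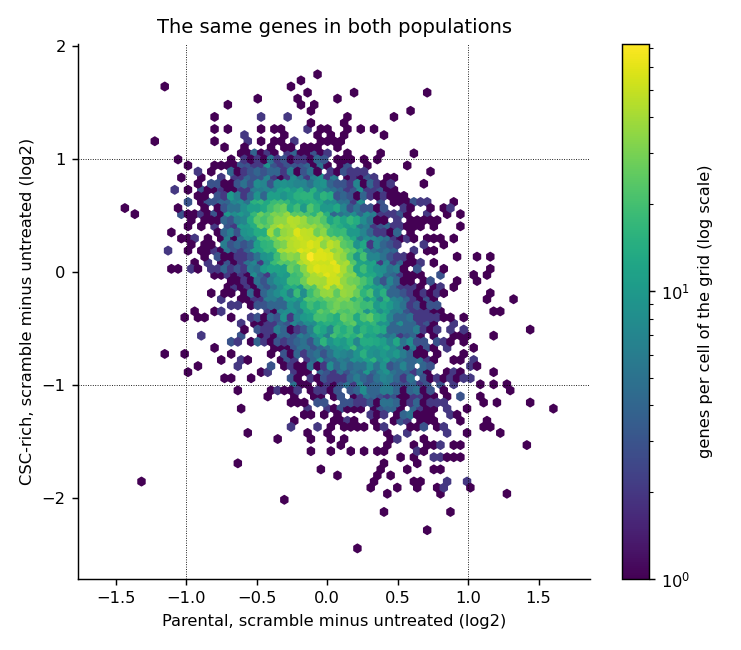
Difference between scramble and untreated, log2, of 11888 genes in the parental pair (horizontal axis) and in the CSC-rich pair (vertical axis); colour gives the number of genes in each cell of the grid, on a log scale, and dotted lines mark 2-fold. The cloud runs from upper left to lower right, with a Pearson r of -0.515.

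Of the 374 genes at least 2-fold lower in CSC-rich cells, 332 (88.8%) were above the parental pair's median, 15 were at least 2-fold higher there, and 1, MIR1282, was lower by fitted levels. Their median parental difference was 0.43 and their median span 13.0 kb, against 28.2 kb over all genes. Of the 104 at least 2-fold higher, 78 (75%) were below the parental median, 2 were at least 2-fold lower there and 0 higher, with a median parental difference of -0.24 and a median span of 37.6 kb. On the PNAs-A15 array of the CSC-rich cells, which is set against the same untreated array, the medians of these groups were 0.26 and 0.13, so the group lower with scramble was not lower there and the group higher with scramble lay close to the untreated level. On the parental PNAs-A15 array, 124 of the 374 (33.2%) were at least 2-fold below the parental untreated array, where all genes had 17.2%, and 29 of the 104 (27.9%) were at least 2-fold above, where all genes had 20.1%. Across all genes the CSC-rich difference and that of the parental PNAs-A15 array correlated at a Pearson r of 0.024.

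The 17 genes at least 2-fold apart in opposite directions included 15 lower in CSC-rich and higher in parental cells. TNFRSF12A, the receptor of the cytokine TWEAK, differed by -1.21 in CSC-rich and 1.61 in parental cells. PRMT1, an arginine methyltransferase, differed by -1.03 and 1.29, and RRP9, a protein of ribosomal RNA processing, by -1.01 and 1.26. PLEC, the cytoskeletal linker plectin, differed by -1.16 and 1.11, and PGAM1, BCL7C and RABL6 were also detected on both CSC-rich arrays. The other 8 were not detected on the CSC-rich scramble array, so their fold there is a fitted value: the mitochondrial ribosomal protein MRPS34 was at least 1.60-fold lower, PSMC4 at least 1.64-fold, and TRMU, TRAF7, NPDC1, AP1S1 and the pseudogenes NSUN5P1 and PIPSL complete the set. PPID and RSBN1L, a nuclear protein with 1.13 and -1.22, were higher in CSC-rich and lower in parental cells.

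The genes furthest to the same side in both populations were named by the smaller of their differences. Of those detected on both CSC-rich arrays, LLGL1, a polarity protein, differed by 0.77 in CSC-rich and 0.67 in parental cells. The DNA repair gene RDM1 differed by 0.64 and 0.68, with -0.27 by its second probe in CSC-rich cells. RBM48, an RNA-binding protein, had -0.88 and -1.01, and SNN -0.75 and -0.75. The others have only bounds in CSC-rich cells: beside MYH14, the sialic acid esterase SIAE was at least 1.48-fold and the semaphorin SEMA4A at least 1.41-fold higher, and POTEG and MICALL2 were at least 1.14-fold and 1.07-fold lower. The order of these genes rests on fitted levels near the floor. None of the 374 lower or 104 higher genes was past 2-fold to the same side in both pairs except MIR1282, by fitted levels.

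A test of scramble against untreated is possible only over both populations together. In limma's additive fit of treatment and population over 6 arrays, with 2 residual degrees of freedom and 12101 genes, 0 genes passed an adjusted p of 0.05 and 1, MIR1282, had an unadjusted p under 0.05. In simulated data of the same size with independent noise of SD 0.3, the fit recovered 100% of genes with a log2 change of 2 and 41.5% of those with a change of 1. Those shares hold for noise of that kind and size only, and whether they carry over to these arrays was not tested. The fit averages over populations whose differences ran in opposite directions, so it is no test of the CSC-rich pair.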

How the data were processed

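The deposited table holds an intensity (linear average signal) and a detection p-value for each probe and array of 6 Illumina HumanHT-12 v4 arrays; the program was GenomeStudio 2011.1, per the submitters' processing notes, and any scaling step is not given in the sources used. The deposited series matrix equalled these intensities in 100% of cells, within a relative tolerance of 1e-06. The detection p-values deposited by the authors rank a probe's signal among negative controls. Intensities were background-corrected with limma's neqc (limma 3.58.1, R 4.3.3; offset 16, controls inferred from the detection p-values), quantile-normalized over the 6 arrays and put on the log2 scale. Levels and differences in the text are on that scale unless named as deposited signals. Probes were kept at a detection p under 0.05 on at least 1 array of a pair.

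Of all probes, 30113 had 1 gene symbol in the platform annotation, 8 had several and 17202 were not listed; identifiers of 30074 matched NCBI RefSeq GRCh38.p14, and 0 symbols changed. The brightest kept probe by its mean over 6 arrays stood for a gene. A gene not detected on one array has a bound, given as "at least", against the higher of its own value and the lowest detected level there. Genomic span and gene type came from RefSeq. Since GRCh38.p14 is not named for the arrays, its coordinates describe RefSeq genes, not probes.

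Each group has 1 array, so the number of arrays limits precision and the pair has no p-value. The spread behind p-values of the limma fit is how far treatment differences disagree between the populations. Array noise and a differing response cannot be told apart in that spread. The fit was tested on simulated data. Named genes were the 15 highest and 15 lowest detected on both arrays, the 8 highest and 8 lowest bounds, the 5 highest and 5 lowest over 2 probes and over both populations, per list as many as 4 members furthest from 0, and ZNF121, EEF1G, ACOT1, CYBA and PSMC4. Open reading frames and LOC symbols were left out, and not every gene of the rule is printed. The comparison, lists and rule were chosen with earlier results of these data known. Alternatives were other scalings, offsets, filters, probe rules and fold thresholds and leaving out an array.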

Additional observations from a re-analysis of the deposited data

Results flagged for a closer look

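Several results had opposite signs in the CSC-rich and the parental pair. The difference between the populations was not tested, since each has 1 array per treatment. There were 17 genes at least 2-fold apart in opposite directions, 9 of them detected on both CSC-rich arrays. The longest decile of genes by span minus the shortest was 0.35 in CSC-rich cells and -0.18 in parental cells. Relative to all genes, replacement histones had a median of -0.21 and 0.27, TGF-beta, BMP and ID genes 0.35 and -0.22, epithelial markers -0.56 and 0.20, and fibroblast and endothelial markers 0.44 and -0.35, each in CSC-rich and parental cells in that order.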

How the results depend on the processing

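Among the 15 gene lists at least 0.2 from the median of all genes, the sign was kept in each of 135 recomputed values, and the difference between the longest and shortest span deciles, 0.35, kept its sign under each alternative, at 0.22 without normalization, 0.25 without background correction and 0.31 or more otherwise. The counts at 2-fold moved. Genes higher and lower in CSC-rich cells numbered 40 and 678 with median scaling, 5 and 79 with quantile normalization without background correction, 29 and 165 with an offset of 50, and 64 and 211 when detection on both arrays was required; without normalization 0 were higher. At 1.5-fold they numbered 1090 and 1352. In parental cells 103 were higher with median scaling, 16 higher and 0 lower without normalization, and 3 higher and 1 lower without background correction. Lists at least 0.2 apart numbered 9 both without normalization and without background correction. Median scaling moved the median of all genes to -0.09, and no normalization to -0.16. The SD of the disagreement between probes of a gene was 0.416. Of 1738 recomputed values of 200 named genes, 1502 moved by less than that and 235 by more. A reversal was counted only for genes at least 2-fold apart under the processing described above, and 1 reversed: ALDOA, 0.20 with the median over probes. Sign changes of smaller differences were not counted as reversals. The limma fit called 0 genes under each alternative, with 1 to 64 at an unadjusted p under 0.05. The cause of these moves was not tested. No paired analysis was possible because each group has 1 array and the labels carry no replicate numbers. Signals near background limit the dim genes most: 1003 genes were detected on the untreated array alone and 305 on the scramble array alone.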
